A study of Drosophila melanogaster with 9 samples.

Results

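The set described here holds 155 genes of the fruit fly Drosophila melanogaster that carry computed-gene (CG) symbols, out of 5021 genes with such symbols and 10372 genes in the deposited table. Each gene was chosen because all 6 fat body libraries of a cross carrying an activated insulin receptor lay on the same side of all 3 libraries of a control cross. The mean of the heat-shocked and the mean of the unheated transgene libraries also had to lie at least 2-fold from the control mean on that side. Genes in which all unheated libraries lay below every heat-shocked library were left out, which removed 10 genes that otherwise met the limits, CG15067 among them. The result is 93 genes that were higher in the transgene cross and 62 that were lower. Both comparisons with the control cross chose the genes, so their values in those comparisons are a description and carry no test.

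Fat bodies came from female larvae, still feeding, midway through the third instar. All larvae were offspring of hs-GAL4 mothers, in which a heat-shock promoter drives the yeast activator GAL4 in most tissues. The fathers came either from the control stock 6598 (y1w1118) or from stock 8263, which carries UAS-InR.A1325D, a constitutively active form of the insulin receptor under the GAL4-responsive UAS. The 3 groups, each of 3 libraries, were the control cross with heat shock (control_HS), the transgene cross with heat shock (InRCA_HS) and the transgene cross with a mock treatment (InRCA_noHS). Heat shock was 30 min at 37 °C, the mock larvae were moved to a fresh vial without heat after rearing at 25 °C, and tissue was taken after 6 h. An unheated control cross was not analysed here, so the transgene, its leaky expression and any other difference between the paternal stocks cannot be told apart in a comparison of the crosses. In the unheated transgene libraries, the lack of heat is added to these. Heated and unheated transgene libraries differ in heat and also in induction of the activated receptor, which cannot be told apart in that comparison. Below, a difference with heat shock means one between these groups and names no cause.

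A CG number is the provisional symbol that the fly genome annotation gives to a predicted gene until it is named. The larval fat body is the counterpart of vertebrate liver and adipose tissue: it stores fat and glycogen, makes haemolymph proteins and immune peptides, and responds to insulin and ecdysone. Genes of oxidation, conjugation, transport and proteolysis are numerous in this tissue, and many of them still have a CG symbol.

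Values are adjusted counts, a read count per gene after the authors' adjustment, and library totals ran from 10625545 to 15514912. InR, the insulin receptor gene, read 743, 785 and 826 adjusted counts in control libraries, 1821, 3662 and 2128 in unheated and 66688, 47774 and 60402 in heated transgene libraries. The 3 groups did not overlap, and the unheated transgene libraries stood between the others. The gene w, whose mini-white form marks many fly transgenes, read 52.4, 38.6 and 69.0, then 72.0, 112 and 71.8, then 1492, 1302 and 1229 in the same order of groups. All 7 fat body markers were in the table, and they took 23.2% to 31.0% of all adjusted counts in the 9 libraries. In each transgene group 2 of these 7 lay above control_HS. Fbp2 had log2 differences of 3.98 in InRCA_HS and 4.38 in InRCA_noHS, while the medians of the list were -0.41 and -0.39. All 7 salivary gland markers were also present; their sums ran from 14453 to 40496 in control_HS, 33517 to 105335 in InRCA_noHS and 58531 to 180684 in InRCA_HS. The 8 muscle markers summed to 30190 to 57663, 16845 to 28242 and 23351 to 27701 in the same order, and the 6 cuticle genes in the table to 2397 to 3744, 3149 to 4892 and 4214 to 12614. Only 3 of these 6 cuticle genes lay above control_HS in InRCA_noHS, where Cpr11A had a log2 difference of -1.96. In the same order, 5 hemocyte markers summed to 3185 to 5754, 2376 to 2954 and 2860 to 5846. The sums of 4 neuron markers were 4994 to 7768, 5416 to 6485 and 2793 to 4176. Gut, Malpighian tubule, testis and germ line sums overlapped between the groups. No gene of these lists belongs to the set, and their part in the differences below was not tested. In such bulk samples, fewer cells of a type and less RNA per cell cannot be told apart. Nothing in the labels says that a group's libraries are from separate cultures, so p-values measure the spread between these libraries.

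**Figure D1:**
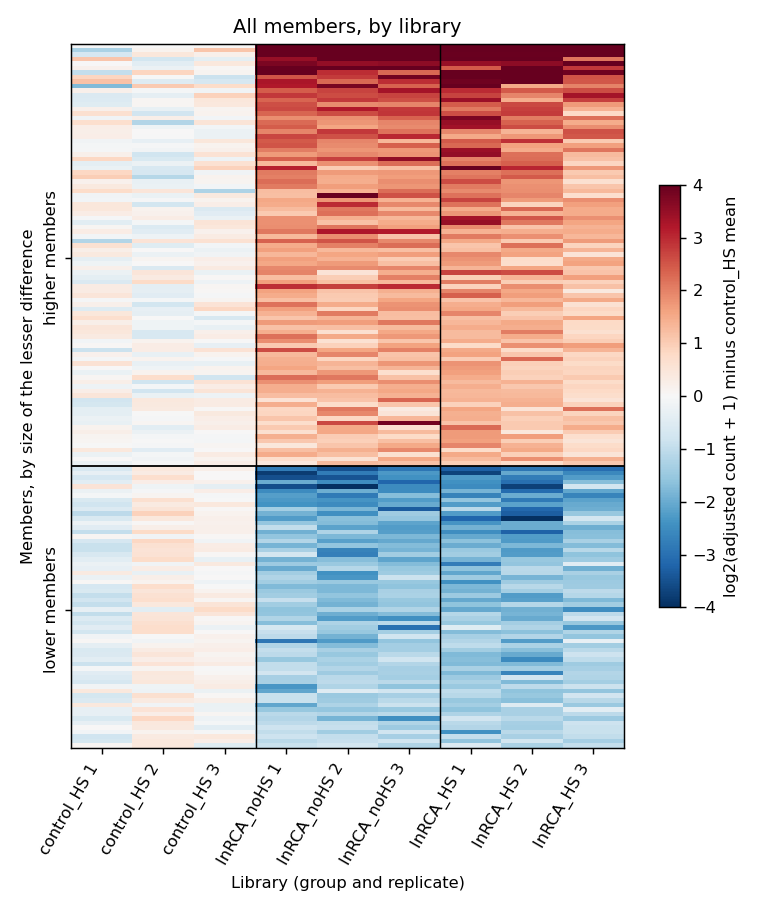
Each row is 1 of the 155 genes and each column 1 of the 9 libraries; colour gives log2(adjusted count + 1) minus the gene's mean over the 3 control_HS libraries. Colours saturate at 4 log2 units; the 93 higher genes fill the upper rows in red and the 62 lower genes the lower rows in blue in all 6 transgene columns, as the choice of genes requires.

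The set made up 3.09% of the CG-symbol genes. Among the 5351 genes with other symbols, 103 met the same limits and the same exclusion, which is 1.92%. Over all genes, 1.43% met the limits upward and 1.24% downward before the exclusion. At the edge of the 2-fold limit, CG14332 lay just inside with a lesser fold of 2.01 upward and CG17327 with 2.01 downward. CG11679 with 1.99 and CG14879 with 1.98, both lower in the transgene cross, lay just outside. As for calls, 45 of the 93 higher genes were past an adjusted p of 0.05 in InRCA_HS against control_HS, beside 1.11% of all genes upward, and 66 in InRCA_noHS against control_HS, beside 3.25%. Of the 62 lower genes these counts were 31, beside 1.32% of all genes downward, and 43, beside 3.78%. In both directions together, 2.43% and 7.03% of all genes were called in these comparisons. The separation of all 6 transgene from all 3 control libraries, which every member has by choice, was seen upward in 5.24% and downward in 4.17% of all genes. The genes were chosen on these differences, so the counts describe the choice.

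Higher genes differed from control by a median of 3.43-fold without heat shock and 3.20-fold with it, with highest values of 49.7-fold and 23.0-fold. Lower genes differed by medians of 3.14-fold and 3.03-fold, and at most by 10.3-fold and 8.81-fold. The lesser of the 2 folds reached 4 in 22 higher and 10 lower genes, and 10 in 7 higher genes and no lower gene. A control mean under 10 adjusted counts was found in 27 higher genes and no lower gene, and one of at least 1000 in 2 higher and 12 lower genes. Both transgene means were under 10 in 8 higher and 13 lower genes. The choice of genes by their position against control bears on these counts, so they describe the set. All 155 genes passed the minimum of a mean of 1 over the libraries, and none had a value of 0. The same held for all 10372 genes of the table, so it is not particular to the set.

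CG12224, an aldo-keto reductase of the family that reduces aldehydes and ketones, had the largest lesser fold of the set. It read 80.5, 83.6 and 86.2 adjusted counts in control libraries, 2870.4, 1969 and 2358 in unheated and 1559.8, 2438 and 1548 in heated transgene libraries. The control libraries were close together, the lowest transgene library was far above them, and heated and unheated transgene libraries overlapped. The group means were 28.8-fold and 22.2-fold above control. CG32335, named meep in the current annotation and described in the fly as supporting insulin sensitivity, read 4.82, 11.5 and 9.62 in control libraries, 424, 312 and 367 in unheated and 139, 140.1 and 152 in heated transgene libraries. Its 3 groups did not overlap: the unheated libraries were highest, at 42.6-fold the control mean, and the heated libraries stood at 16.7-fold. CG11192, a predicted trypsin-like serine protease, read 1.94, 1.20 and 1.67 in control libraries, 55.1, 107 and 76.9 in unheated and 13.0, 52.3 and 17.4 in heated transgene libraries. It had the highest single fold of the set, 49.7 without heat shock, from a control level of a few counts, and 17.2 with heat shock.

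Other leading higher genes varied more between libraries of a group. CG9666, now Mettl5, encodes a ribosomal RNA adenine methyltransferase and read 37.0, 9.60 and 12.3 in control libraries, 195, 395 and 498 in unheated and 387, 675 and 76.0 in heated transgene libraries. InRCA_HS replicate 3 lay nearest to control, and the exons of this gene overlap those of Max and CG9629 on the other strand, whose reads cannot be told apart without strand information. CG11893, an ecdysteroid kinase-like gene of a family thought to phosphorylate steroid hormones and toxins, read 1.91, 9.07 and 4.99 in control libraries, 93.8, 42.2 and 26.3 in unheated and 112, 173 and 82.2 in heated transgene libraries. Its means were 10.2-fold and 23.0-fold above control, and the heated and unheated libraries overlapped. CG43291, without a given role, was more even, at 11.6, 8.28 and 15.7 in control libraries, 168, 142 and 149.7 in unheated and 139, 149.5 and 207 in heated transgene libraries.

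Several leading genes have no role given here. CG42847 read 3.82, 11.7 and 24.2 in control libraries, 609, 330.03 and 184 in unheated and 259, 221 and 224 in heated transgene libraries. Its exons overlap on the same strand those of Fbp2, a fat body protein gene of much higher level that read 10683, 6081 and 7906 in control libraries, 198420, 122650 and 192270 in unheated and 104160, 155030 and 123840 in heated transgene libraries, so the counts of CG42847 may hold reads of Fbp2. CG3014 read 33.1, 17.5 and 9.31 in control libraries, 105, 129.6 and 269 in unheated and 603, 296 and 105 in heated transgene libraries. CG43679 read 299, 93.3 and 83.1 in control libraries, 1288, 649 and 1038 in unheated and 1971, 3263 and 741 in heated transgene libraries. CG13135 read 8.63, 66.9 and 54.5 in control libraries, 302, 458 and 170.2 in unheated and 808, 94.4 and 129 in heated transgene libraries. In these 3 genes the heated libraries spread over several-fold and overlapped the unheated ones.

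**Figure D2:**
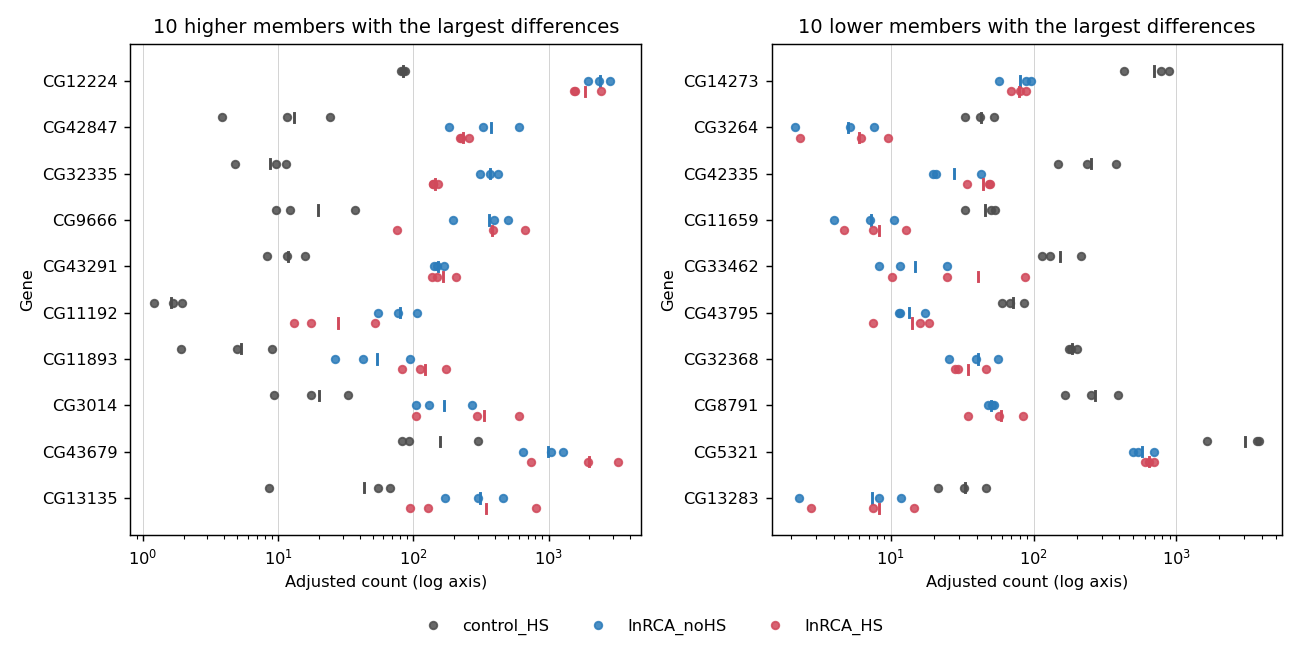
Adjusted counts on a log10 axis for leading higher and leading lower genes; points are libraries, coloured by group, and short bars are group means. In CG12224 the 3 control_HS points lie between 80.5 and 86.2 and the 6 transgene points at 1548 or above.

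Among the higher genes with a given role, 6 act in lipid and carnitine metabolism. CG3394, the fatty acid transport protein Fatp3, had the highest control level of the higher genes, at 3034, 1503 and 3601 in control libraries, 7005, 6705 and 7384 in unheated and 6218, 6093 and 4435 in heated transgene libraries. Its folds of 2.59 and 2.06 were near the limit. CG13917 and CG34279, for which no role is given, had the next highest control means, 1283 and 886. CG4594, an enoyl-CoA isomerase of fatty acid oxidation, read 23.2, 34.8 and 44.6 in control libraries, 203, 126 and 130.3 in unheated and 179.7, 213 and 109 in heated transgene libraries, or 4.48-fold and 4.89-fold. The others were CG9577, a dienoyl-CoA isomerase, CG2201, a choline kinase of phospholipid synthesis, and the predicted lipases CG13282 and CG17191. CG17191 was uneven, at 67.8, 266 and 619.6 in InRCA_noHS against 93.6, 87.1 and 89.0 in InRCA_HS and 33.9, 44.1 and 48.4 in control_HS.

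Transporters were another group of 6 higher genes, with folds between 2.18 and 3.56. CG31100, a predicted sugar transporter, read 722, 360.4 and 702 in control libraries, 2602, 1633 and 1882 in unheated and 1355, 1595 and 1035 in heated transgene libraries. CG4928, related to UNC93 membrane proteins, read 518, 329 and 373 in control libraries, 1704, 1276 and 1368 in unheated and 1679, 1417 and 861 in heated transgene libraries. CG17119 is cystinosin, which exports cystine from lysosomes, and read 131, 68.8 and 91.4 in control libraries, 266, 195 and 228 in unheated and 497, 302 and 204 in heated transgene libraries. Its exons overlap on the same strand those of sav, which had a higher mean, so its counts may hold reads of sav. In each of these 3 genes the heated and unheated transgene libraries either overlapped or, in CG31100, the heated ones were all lower. The remaining transporters were the sugar transporter CG4607, the sodium-dependent solute transporter CG7720 and the nucleoside transporter CG8083.

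Enzymes of glycan and sulfate metabolism gave 5 higher genes. CG30463 is a transferase that starts mucin-type O-glycans and read 373, 323 and 406 in control libraries, 1097, 841 and 934 in unheated and 1202, 684 and 678 in heated transgene libraries. CG1969 acetylates glucosamine phosphate on the way to UDP-GlcNAc, the sugar donor for chitin and glycoproteins, and stood 2.13-fold and 2.69-fold above control. CG8708, a galactosyltransferase-like gene that extends such glycans, stood 2.63-fold and 2.68-fold above, and CG7402, a sulfatase, 3.65-fold and 6.06-fold. CG4835, a chitin-binding protein, had a level under 10 adjusted counts in every library. The sulfatase CG18278 went the other way, at 16.5, 23.1 and 19.6 in control libraries, 7.84, 3.12 and 10.2 in unheated and 6.72, 4.71 and 6.22 in heated transgene libraries.

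The other higher genes with a role were mixed. The nuclear and general cell group held 9, among them the histone chaperone CG8223 (Nasp), the chromatin protein CG9293 (Ing5), the prefoldin-like CG15863 (Pdrg1) and CG32039, whose small product binds the ATPase VCP. The Ly6 protein CG31676 and the EF-hand protein CG10126 also belong there. CG3339, an axonemal dynein heavy chain known from motile cilia, read 1.92, 2.41 and 7.30 in control libraries, 30.0, 25.7 and 27.6 in unheated and 27.5, 16.0 and 42.8 in heated transgene libraries, which is 7.16-fold and 7.42-fold. Higher immune and recognition genes were CG7763, a C-type lectin at 2.57-fold and 2.64-fold, and CG12780, related to proteins that bind microbial glucans. CG12780 rested in part on 1 library, with 11.6, 112 and 30.6 in InRCA_noHS, 23.6, 19.9 and 7.67 in InRCA_HS and 3.87, 3.55 and 6.18 in control_HS. CG15766, an agmatine acetyltransferase, and CG5157, a cytochrome b5-like protein, were among the remaining enzymes, both at under 25 adjusted counts in all libraries. CG9522, an oxidoreductase, CG9486, related to arylalkylamine acetyltransferases, and the proteases CG6357, CG30286 and CG17283 complete the higher genes with a role.

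Of the 62 lower genes, 15 fell in the class of other enzymes and 8 in lipid and carnitine metabolism, against 6 and 6 of the 93 higher genes. The glycan and sulfate class went the other way, with 1 lower and 5 higher genes. These classes were assigned by hand from general knowledge, to 34 lower and 38 higher genes. They were given to members only, so their share over all genes is not known, and the difference between the directions was not tested. CG5321 and CG4335 are dioxygenases of carnitine synthesis, and carnitine carries fatty acids into mitochondria. CG5321 read 1644, 3667 and 3811 in control libraries, 537, 499.7 and 698 in unheated and 599, 641 and 703 in heated transgene libraries, with control 5.26-fold and 4.70-fold above. CG4335, trimethyllysine dioxygenase, read 104, 286 and 138 in control libraries, 71.1, 43.2 and 28.1 in unheated and 94.6, 75.7 and 57.5 in heated transgene libraries. Its groups did not overlap, but control_HS replicate 1 lay close to the highest transgene library. CG10399, HMG-CoA lyase of ketone body synthesis and leucine breakdown, was even, at 93.1, 104 and 96.1 in control libraries, 48.8, 43.2 and 38.4 in unheated and 39.3, 37.9 and 38.6 in heated transgene libraries. Its exons overlap on the other strand those of sip2, which had a higher mean.

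The lower set held the luciferase-like acyl-CoA synthetases CG11659, CG6300 and CG6178, relatives of firefly luciferase that activate fatty acids. Other genes of this family were not listed, so nothing is said of the family as a whole. CG6300 and CG11659 are neighbours on the same strand. CG11659 read 32.9, 53.3 and 50.1 in control libraries, 10.5, 7.20 and 4.01 in unheated and 7.46, 4.67 and 12.9 in heated transgene libraries. CG6178 was the most abundant of them, at 784, 1677 and 1306 in control libraries, 427, 345 and 489 in unheated and 321, 468 and 579 in heated transgene libraries. The remaining lipid genes were CG8630, a desaturase that puts double bonds into acyl chains, and CG7910, a fatty acid amide hydrolase, both under 50 adjusted counts.

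Among other lower enzymes, CG3264, the alkaline phosphatase Alp8, had the second largest lesser fold, at 32.9, 53.2 and 42.4 in control libraries, 2.13, 5.14 and 7.68 in unheated and 2.31, 9.53 and 6.21 in heated transgene libraries. Control was 8.60-fold and 7.12-fold above. CG8665, formyltetrahydrofolate dehydrogenase of the folate cycle, read 2137, 4544 and 3231 in control libraries, 1384, 670.3 and 576 in unheated and 1283, 786 and 1863 in heated transgene libraries. CG11652 takes part in making diphthamide, a modified histidine of elongation factor eEF2, and read 1184, 1408 and 1544 in control libraries, 469, 410.2 and 315 in unheated and 264, 346 and 572 in heated transgene libraries. In all of these the transgene libraries lay below control, with CG8665 the most scattered. CG3835 (D-2-hydroxyglutarate dehydrogenase), CG9331 (glyoxylate and hydroxypyruvate reductase), CG5793 (acylpyruvase), CG8353 (cytidine deaminase), CG32444 (aldose 1-epimerase), CG17322 (UDP-glycosyltransferase) and CG1702 (glutathione transferase) were also lower, with lesser folds from 2.05 to 3.30. The purple acid phosphatase CG1637, the short-chain dehydrogenases CG3842 and CG9150 and CG10778, an enzyme of dolichol synthesis, lay between 2.05 and 2.25.

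Of the lower proteases, CG33462, a trypsin-like serine protease, had the highest single fold in that direction, 10.3 without heat shock, and 3.76 with it. It read 213, 130.2 and 115 in control libraries, 11.6, 8.27 and 24.7 in unheated and 24.7, 10.2 and 86.9 in heated transgene libraries, so that InRCA_HS replicate 3 set the lesser value. CG3775 and CG13283 belong to the neprilysin family of membrane metallopeptidases, CG33460 is another trypsin-like protease, and CG9733 is a CLIP-domain protease of the kind that acts in haemolymph cascades. CG8389, a monocarboxylate transporter, CG8791, of the major facilitator superfamily, and CG31689, an ABC transporter, were the lower transporters. CG18067, or Bombardier, a secreted protein needed for the action of Bomanin immune peptides, had the highest control level of the set, in adjusted counts and in adjusted counts per kb of exon. It read 9370.4, 11168 and 9638 in control libraries, 5086, 3853 and 5751 in unheated and 1876, 4792 and 5448 in heated transgene libraries, with all transgene libraries below control and a spread over several-fold in InRCA_HS.

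CG14273 led the lower genes and has no role given here. It read 428, 893 and 785 in control libraries, 96.1, 57.6 and 88.8 in unheated and 69.2, 89.0 and 80.7 in heated transgene libraries, with control 8.68-fold and 8.81-fold above. CG42335 read 147, 376 and 236 in control libraries, 19.9, 20.6 and 43.1 in unheated and 48.5, 34.0 and 49.2 in heated transgene libraries. CG32368, a long non-coding RNA in the current annotation, was even in control libraries, at 177, 202 and 182. It varied more in the transgene cross, at 39.8, 25.8 and 56.4 in unheated and 28.2, 46.5 and 29.4 in heated libraries. In each of the 3 genes the heated and unheated transgene libraries overlapped. For 55 higher and 28 lower genes no role is given.

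The rule restricted the comparison of heated with unheated transgene libraries without setting it. It required both means to lie at least 2-fold from control, which removes genes in which either came back towards control, so the counts below hold for genes chosen in that way. For the lower genes the exclusion also removed those with every heated above every unheated library. With limma across all 10372 genes, 2.55% were past an adjusted p of 0.05 between InRCA_HS and InRCA_noHS, 1.75% higher and 0.8% lower with heat shock. In the set, 2 of 155 genes passed, both higher members that were lower with heat shock. CG13116, with no role given here, read 36.9, 22.3 and 30.9 in control libraries, 233, 204 and 242 in unheated and 56.6, 109 and 67.4 in heated transgene libraries, so that its 3 groups did not overlap. It fell by 1.58 on the log2 scale (SE 0.28, adjusted p = 0.0145 in limma), and the 3 heated libraries were all below the 3 unheated ones. CG32335 fell by 1.34 (SE 0.28, adjusted p = 0.0319 in limma), again with all 3 heated below all 3 unheated libraries.

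Both calls were close to the threshold. CG13116 was no longer called when InRCA_noHS replicate 1, 2 or 3 or InRCA_HS replicate 1 or 3 was left out, with adjusted p in limma from 0.0531 to 0.0707. CG32335 was not called without any single transgene library, with adjusted p from 0.0807 to 0.125, nor without the mean-variance trend, with 0.0590. Without InRCA_noHS replicate 1 neither of them was called, while CG17191 and CG43218, both lower with heat shock, passed with adjusted p in limma of 0.0173 and 0.0407. Without InRCA_noHS replicate 2 or 3 or InRCA_HS replicate 1 or 3, no member was called. Without InRCA_HS replicate 2, CG13116 and CG11192 were called, with 0.0112 and 0.0216. The log2 difference remained between -1.85 and -1.39 for CG13116 and between -1.45 and -1.23 for CG32335.

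The other 153 genes did not pass, and the size of a difference between heated and unheated transgene libraries that could have been missed varied. The 95% interval of the log2 difference lay within 1 unit of 0 in 33 of 93 higher and 29 of 62 lower genes. For the remaining genes the interval reached or passed 1 unit, so that a 2-fold difference was not excluded by it. The median half-width was 0.83 for higher genes and 0.76 for lower genes, against 0.55 over all genes. At an unadjusted p under 0.05, 12 higher and 1 lower genes passed, beside 14.8% of all genes. All 3 heated libraries lay below all 3 unheated in 13 higher and 3 lower genes, where 15.8% of all genes did so, and above them in 1 higher gene, where 7.52% of all genes did so. That no lower gene had this upward pattern is set by the exclusion.

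The log2 difference between heated and unheated libraries was below 0 in 56 and above 0 in 37 higher genes, with a median of -0.09, and below 0 in 33 and above 0 in 29 lower genes, with a median of -0.04. The median over all genes was -0.14. With TMM scaling, the counts turned to 44 below and 49 above for higher genes and 27 below and 35 above for lower genes. Quantile scaling gave 46 below and 47 above, and 26 below and 36 above. The direction of these small differences therefore depends on the scaling, and that scaling shifted the median of all genes to -0.02 with TMM and -0.05 with quantiles.

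The difference between heated and unheated libraries varied among leading higher genes. CG11192 had a log2 difference of -1.70 between heated and unheated libraries with an adjusted p of 0.117 in limma, and its heated libraries lay below the unheated ones. The log2 difference was 1.29 for CG11893 (adjusted p = 0.289 in limma), 0.78 for CG3014 (adjusted p = 0.605) and 0.82 for CG43679 (adjusted p = 0.548), all with overlapping libraries. For CG12224 the log2 difference was -0.39 with an adjusted p of 0.403 in limma.

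**Figure D3:**
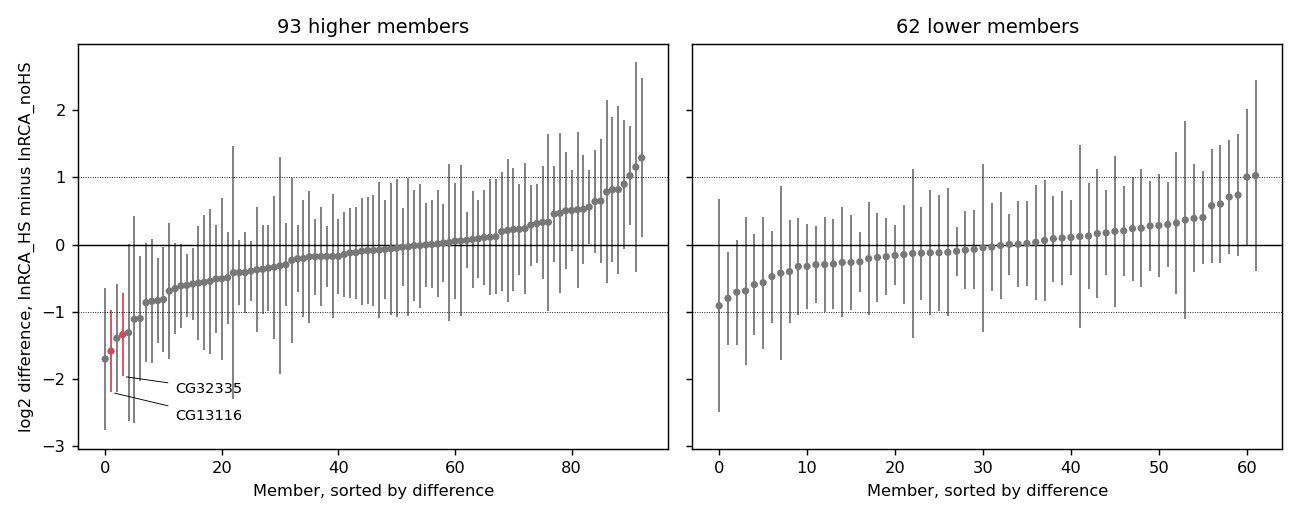
log2 difference between InRCA_HS and InRCA_noHS for each gene, sorted within the 93 higher and the 62 lower genes; points are limma estimates, vertical lines 95% intervals, and dotted lines mark 1 log2 unit. The 2 coloured genes, CG13116 and CG32335, are those past an adjusted p of 0.05.

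Libraries did not contribute evenly to the distance between the crosses. Among lower genes, control_HS replicate 1 was the control library nearest to the transgene cross in 51 of 62 genes. The median over lower genes of the log2 distance from the control mean was -0.50 in that library, 0.41 in replicate 2 and 0.09 in replicate 3. In the transgene cross it ran from -1.39 to -1.62 without and from -1.36 to -1.77 with heat shock. Among higher genes, the control medians were 0.09, -0.15 and 0.12, and InRCA_HS replicate 3 was the transgene library nearest to control in 37 of 93 genes, with a median of 1.20 against 1.89 and 1.57 in the other heated libraries. The unheated libraries gave 1.66, 1.69 and 1.74. In limma's sample weights control_HS replicate 1 had the lowest value, 0.42, where 1 is average.

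This bears on how many genes meet the limits. Without control_HS replicate 1, the same limits gave 308 genes in place of 155. Leaving out any other library gave between 143 and 203.

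**Figure D4:**
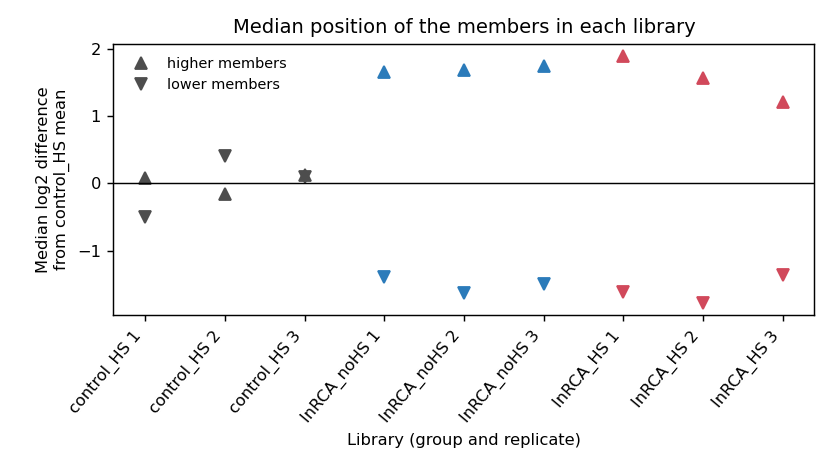
Median over the 93 higher and over the 62 lower genes of log2(adjusted count + 1) minus the control_HS mean, 1 point per library. Among lower genes control_HS replicate 1 lies at -0.50, nearer to the transgene libraries than the other control libraries do.

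The members were also set beside other genes of 4 enzyme families, from lists made with earlier results of these data known. Of the ecdysteroid kinase-like family, 39 of 47 listed genes were in the table, and the set holds CG11893 among the higher and CG33510 among the lower genes. CG2004 of this family also met the limits downward and was left out by the exclusion. It read 1516, 6411 and 3053 in control libraries, 376, 411 and 399 in unheated and 620, 1070 and 942 in heated transgene libraries. Between heated and unheated transgene libraries 1 of these 39 genes rose and 1 fell in limma, with a family median of -0.15 on the log2 scale against -0.14 over all genes. CG13360, outside the set, rose with heat shock by 1.64 on the log2 scale (adjusted p = 0.0466 in limma). This call was lost without any single transgene library or control_HS replicate 3, with adjusted p from 0.0695 to 0.177, and without the trend, with 0.106. CG6908, also outside the set, fell by 1.56 (adjusted p = 0.0227 in limma), and its call was lost without InRCA_noHS replicate 1, 2 or 3 or InRCA_HS replicate 2 or 3, with 0.0518 to 0.0977, and without the trend, with 0.0624. Against control_HS, 1 gene of the family was called higher and 1 lower in InRCA_HS, beside 1.11% and 1.32% of all genes. In InRCA_noHS 2 were called higher and 3 lower, beside 3.25% and 3.78%. Without control_HS replicate 1 these totals of 2 and 5 became 4 and 8, and without any other library they were 1 to 2 and 3 to 6.

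Of the alkaline phosphatases, 9 of 13 were in the table and CG3264 was the sole member of the set. It was also the single gene of the family called against control, lower in both transgene groups. For InRCA_HS no gene of the family was called without control_HS replicate 2 or 3 or InRCA_HS replicate 1, and 2 were without InRCA_HS replicate 3; for InRCA_noHS 2 were called without InRCA_noHS replicate 1. With all libraries, no gene of the family was called between heated and unheated libraries, where the median was -0.86. Of the aldo-keto reductases, 8 of 11 were in the table, with CG12224 in the set and a median of -0.23 between heated and unheated libraries. In that family 1 gene was called higher and none lower in InRCA_HS against control_HS, and 2 higher and 1 lower in InRCA_noHS. Without control_HS replicate 1 the call count for InRCA_HS was 2. CG9436 of this family rose with heat shock by 1.08 on the log2 scale (adjusted p = 0.0179 in limma), from 265, 264 and 298 to 554, 639 and 559 adjusted counts. Its call was lost without any single transgene library, with adjusted p from 0.0531 to 0.0793, and without the trend, with 0.0544.

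Of the carboxylesterases, 19 of 23 were in the table and none in the set, with a median of -0.23 between heated and unheated libraries. The single gene called was CG4757, which met the limits against control and was left out by the exclusion. It read 1802, 1491 and 2725 adjusted counts in control libraries, 55.2, 106 and 91.3 in unheated and 318, 303 and 236 in heated transgene libraries. With heat shock it rose by 1.79 (adjusted p = 0.00748 in limma), and it was called lower against control in both transgene groups, with log2 differences of -2.77 and -4.56 for InRCA_HS and InRCA_noHS. Without control_HS replicate 1, 4 carboxylesterases were called against control in each group.

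The genes of the set lay on all large chromosome arms, by the current annotation, in which 153 of the 155 were found. As a share of the arm's CG-symbol genes in the table, members made up 3.12% on 2L, 3.04% on 2R, 2.91% on 3L, 3.14% on 3R and 3.54% on X, and 1 gene lay on chromosome 4. Some genes of the set were neighbours of each other; how many would be so by position alone was not worked out. CG42835 and CG14332 were neighbours and both higher, and CG6300 and CG11659 were neighbours and both lower. In the pairs CG13282 and CG13283, CG9624 and CG43291, and CG32506 and CG1702, a higher gene stood beside a lower one. Altogether 10 genes had a neighbour in the set. Other members stood beside a gene outside the set that met the same limits in the same direction. These were CG14273 beside CG14275, CG42847 beside Fbp2, CG13135 beside Spn31A, CG30463 beside Picot, CG18278 beside AttC and CG1785 beside CG2004. CG8180, a higher gene, stood beside Mtk, which was lower.

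**Figure D5:**
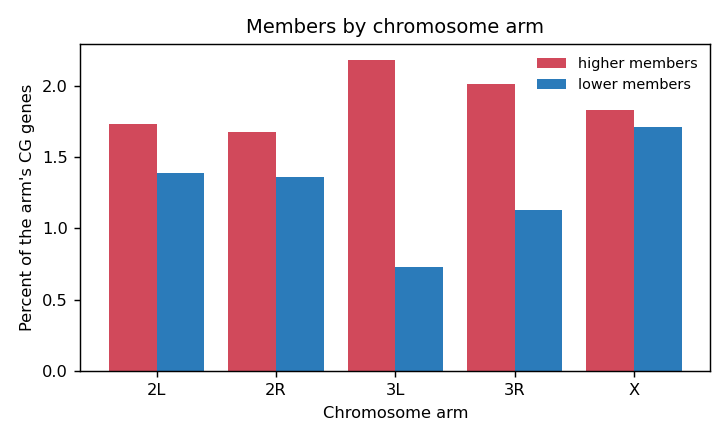
Percent of the CG-symbol genes of each chromosome arm that belong to the set, with higher and lower genes as bars side by side. On 3L the bars stand at 2.18% and 0.728%, and on X at 1.83% and 1.71%.

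Overlap with other genes limits some of the values. In 48 genes of the set the gene overlapped another gene of the table, and in 29 the exons did. In 11 higher and 8 lower genes the overlapping exons belonged to a gene with a higher mean level. Of those partners, Fbp2 beside CG42847 was the single gene that met the same limits in the same direction. Since the counting is not stated to use strand, the values of these 29 genes are uncertain. In CG42847, CG17119, CG8353, CG5157, CG34279, CG3740 and CG12991 an overlapping gene is on the same strand, where strand would not separate the reads. Of the genes with a role described above, CG9666, CG17119, CG5157, CG13282, CG10399, CG8353, CG17322 and CG8389 have an overlapping gene with a higher mean. In the current annotation 33 of the genes, 16 higher and 17 lower, have since received a name other than a CG number.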

How the data were processed

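Total RNA depleted of ribosomal RNA was sequenced on an Illumina HiSeq, per the labels' protocols. Build dm3 and the programs Cufflinks 1.1.0, Bowtie 0.12.7 and TopHat 1.3.2 are listed in the submitters' processing notes; the step that adjusted the counts is not given in the sources used here. The deposited values are a signal per gene, adjusted counts with decimals that the authors made from the reads. Whole reads could be recovered in only some libraries, so no count model was used and limma on log2(adjusted count + 1) took its place (limma 3.58.1 in R 4.3.3). It was fitted to all 9 libraries with 3 group means and a mean-variance trend, over the 10372 genes with a mean of at least 1. P-values were two-sided, and the Benjamini-Hochberg adjustment ran over all 10372 genes; a call is an adjusted p under 0.05. A log2 difference on this scale understates the change of low genes. Folds are ratios of group means of adjusted counts. Without counts, no counting interval is given.

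The members and lists were chosen with earlier results of these data known. The text names the 10 genes with the largest lesser fold in each direction, genes past the threshold with heat shock, the highest levels and genes with a given role, some of which were picked after their values were seen. Names, arms, neighbours, exon lengths and overlaps came from an Ensembl annotation of BDGP6, matched by gene identifier to 95.7% of the genes; its build differs from dm3, so no coordinates are printed. The limma step was tested on simulated data. Alternatives were geometric means, TMM and quantile scaling, another pseudocount, a filter, no trend, array weights, a replicate block, other fold limits and leaving out each library. Figures were drawn with matplotlib 3.10.9.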

Additional observations from a re-analysis of the deposited data

How the results depend on the processing

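Limits of 1.5-fold and 3-fold gave 285 and 62 genes in place of 155. Leaving out each library gave 143 to 308, and of the 155 genes 127 to 152 remained; geometric means kept 153, TMM scaling 147 and quantile scaling 138. The number of members called between InRCA_HS and InRCA_noHS was 1 without the trend, 4 with array weights and 0 to 2 without each library. Calls over all genes moved more: without the trend they were 145 between heated and unheated libraries, 90 for InRCA_HS against control_HS and 446 for InRCA_noHS against control_HS, and with array weights 900 and 1446 for the comparisons with control. The 6 compared libraries alone gave 56 for InRCA_HS against control_HS. Without each library the 3 counts ranged over 106 to 336, 56 to 961 and 267 to 1421, with the extremes of the last at control_HS replicates 1 and 2. Of the calls in InRCA_noHS against control_HS, 46.2% were higher, against 28.9% with TMM and 35.4% with quantile scaling; between heated and unheated libraries the shares were 68.7%, 80.1% and 75.1%. The uncalled log2 difference between heated and unheated libraries changed sign in 3 genes: it ranged from -0.97 to 0.60 for CG9666, from -0.085 to 0.20 for CG43291 and from -1.37 to 0.17 for CG13135 without each library, with the sign changes at InRCA_HS replicate 3, 3 and 2, and was 0.042 for CG13135 with array weights; the cause was not tested. The replicate block left 1 called member, CG13116, with adjusted p in limma of 0.0736 for CG32335 and 0.0739 for CG13360. Same-numbered libraries correlated between -0.245 and 0.121, and 1 of 9 matched its own number best. These values gave no sign that the numbers pair the libraries, but do not settle whether they do. The spread of 3 libraries a group limits what can be detected.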

Other observations

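Genes with names other than CG numbers that met the same limits give the set its surroundings, as values with no test against control. Among the higher ones, Sgs5, a salivary glue protein gene, read 1181, 847 and 937 adjusted counts in control libraries, 16571, 6846 and 7725 in unheated and 28613, 19645 and 10002 in heated transgene libraries. PGRP-SB2, a peptidoglycan recognition protein gene, read 275, 6.39 and 81.0 in control libraries, 1190.1, 2421 and 2714 in unheated and 1177, 4218 and 373 in heated transgene libraries, and Hsp67Bc, a small heat shock protein gene, 360, 191 and 317, then 1486, 2284 and 2005, then 4237, 2073 and 599. Among the lower ones were the immune peptide genes IM1, Dpt and DptB, where IM1 read 1999.5, 2810.1 and 1721 in control libraries, 25.7, 115 and 46.6 in unheated and 152, 312 and 539.6 in heated transgene libraries. Of these 112 named genes within the limits, before the exclusion, 6 passed an adjusted p of 0.05 in limma between InRCA_HS and InRCA_noHS. All 6 were higher with heat shock, beside 1.75% of all genes: IM1, IM2, IM3, Mtk, CaBP1 and InR. Among lower genes, the exclusion applied to the CG-symbol genes removes this upward pattern, so the counts of the 2 groups of genes are not comparable there. The exclusion does not act on higher genes, to which InR, the gene of the transgene, belongs. Of the 55 higher named genes only InR was called higher with heat shock, and of the 93 higher genes of the set none. With 1.75% of all genes called higher, few calls would fall in groups of this size, so no difference is read from these counts.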
